A study of Homo sapiens with 4 samples.

Results

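The SLC25 genes code for the mitochondrial carrier family, and 44 of them had a row among the 20515 rows of the count table. Members were the protein-coding genes whose symbol is SLC25A followed by a number. Another 4 of the 48 such symbols in the reference names, SLC25A2, SLC25A31, SLC25A47 and SLC25A52, were not analysed here. Poly(A) RNA came from T47D cells, an established human luminal breast cancer line. There were 2 libraries from cells treated with baicalein, a flavonoid of skullcap root, and 2 from control cells given no treatment. The sources used here give no dose, duration or vehicle, and no genetic change is named for either group. Whether the libraries of one group stem from different cultures is not stated, and the p-values cover the spread between these libraries, which may be technical.

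Carriers of this family sit mostly in the inner mitochondrial membrane, where each moves a small set of solutes (nucleotides, phosphate, carboxylates, amino acids, cofactors or metal ions) between the cytosol and the matrix. Their proteins share a fold of repeated pairs of membrane helices, and many work as exchangers that let one solute in for another going out. They supply ADP and phosphate for ATP synthesis, export citrate for lipid synthesis, and carry the malate-aspartate shuttle.

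Total counts were 56732569 and 38597207 in baicalein 1 and 2, and 45341857 and 45618604 in control 1 and 2. The 44 genes took 0.257% and 0.260% of the counts in baicalein 1 and 2, against 0.259% and 0.258% in control 1 and 2. Levels are CPM, the counts of a gene relative to its library's total after TMM scaling, and fold changes are baicalein over control. On that scale the 44 genes summed to 2668 and 2689 CPM in baicalein 1 and 2, against 2484 and 2507 CPM in control 1 and 2. Per kilobase of merged exons the sums were 745.9 and 751.4 in baicalein 1 and 2, below the 756.9 and 780.3 of control 1 and 2. Control 1 stood apart from control 2 in the non-coding RNA RN7SK, at 7.35 times its level. The luminal keratin genes KRT8, KRT18 and KRT19 lay between 1473 and 5521 CPM in every library. All 7 luminal markers, however, had both baicalein libraries below both controls, as did 43.5% of all genes tested. KRT8 had 2179 and 2269 CPM in baicalein libraries, against 4809 and 5521 CPM in controls, and ESR1, the estrogen receptor gene, 39.2 and 37.8 CPM against 183 and 171 CPM. PGR, the progesterone receptor gene, had 113 and 106 CPM after baicalein and 927 and 894 CPM in controls, and the other markers were KRT18, KRT19, GATA3 and FOXA1. VIM, a mesenchymal gene, stayed at or below 0.508 CPM and PTPRC, a leukocyte gene, at or below 0.161 CPM. COL1A1, a gene of fibroblasts, had 149.9 and 139.9 CPM in baicalein 1 and 2, against 90.0 and 100.4 CPM in control 1 and 2. COL1A2, its usual partner, had at most 0.106 CPM, and the part of other cell types, or of the lower luminal markers, in the results was not tested. In bulk RNA, fewer cells and less RNA per cell cannot be told apart.

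All 44 genes passed the filter on low counts and were tested. Baicalein-treated cells had higher levels of 16 carrier genes and lower levels of 23, and 5 did not pass (edgeR quasi-likelihood test, Benjamini-Hochberg adjusted p under 0.05 over 18369 genes). Over all genes tested, 37.4% were called higher and 37.6% lower, or 75.0% in either direction, against 36.4% and 52.3% of the carrier genes. The counts called in each group of carriers below are to be read beside these shares. Changes of at least 2-fold were called in 3 carrier genes that rose and 5 that fell, or 6.82% and 11.4% of the family, beside 12.2% and 15.2% of all genes tested. The median log2 fold change was -0.20 for the 44 genes and 0.00 (0.0017) for all genes tested, and the median size regardless of sign was 0.54 and 0.57. The 2 groups of libraries did not overlap in 43 of the 44 carrier genes, with 18 above and 25 below the controls. Non-overlap was common here, with 86.9% of all genes tested (43.4% above and 43.5% below). Without control 1 the counts were 16 higher and 24 lower.

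**Figure D1:**
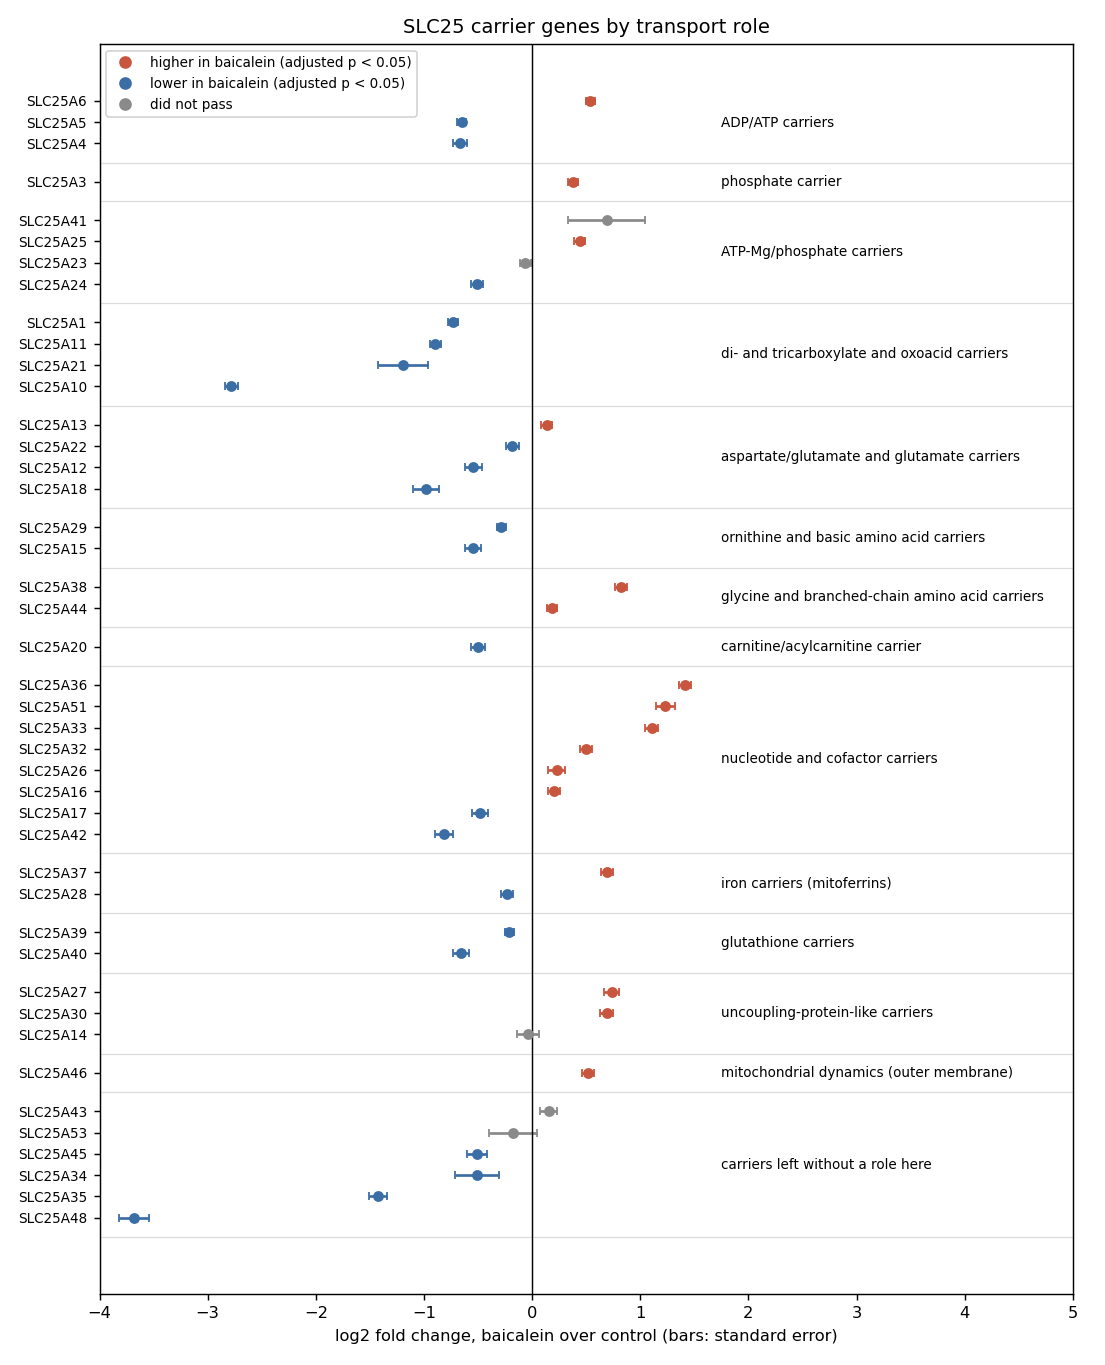
Log2 fold change of 43 SLC25 genes (baicalein over control, 2 libraries each), grouped by what the carrier transports; points are edgeR estimates, bars are standard errors, and colour gives the call. Values run from -3.68 for SLC25A48 to 1.41 for SLC25A36, and the 4 carboxylate carriers all lie left of 0.

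The largest rises were in carriers of nucleotides and cofactors. SLC25A36 (chromosome 3, positions 140941830 to 140980961 of GRCh38) and SLC25A33 (chromosome 1, positions 9539482 to 9585179) code for carriers that bring pyrimidine nucleotides into the matrix, where they serve mitochondrial DNA and RNA synthesis. SLC25A51 (chromosome 9, positions 37879400 to 37904353) codes for the carrier of NAD+. SLC25A38 (chromosome 3, positions 39383324 to 39397351) codes for a glycine carrier needed for the first step of heme synthesis, and SLC25A46 (chromosome 5, positions 110738136 to 110765161) for an outer membrane protein of mitochondrial dynamics. These 5 were picked among the risen genes because the 150 bases before their RefSeq start hold the E-box CACGTG. That palindrome, which factors such as MYC, MAX and TFEB are known to bind, was not used in the choice of family members. SLC25A46 rose by less (log2 fold change 0.52) than SLC25A27 (0.73) and SLC25A6 (0.54), whose promoter windows lack the motif. The stretches of 150 bases before the RefSeq transcription start (build GRCh38.p14) of the 5 picked genes are printed below, with the motif in capitals. SLC25A10 is printed beside them as the abundant gene that fell most. Each is written 5′ to 3′ on the gene's own strand. The gene positions given above come from GENCODE, whose starts differ from those of RefSeq. The stretches of SLC25A46 and SLC25A51 lie wholly inside the positions given for these genes.
SLC25A36 (chr3:140941686-140941835, + strand): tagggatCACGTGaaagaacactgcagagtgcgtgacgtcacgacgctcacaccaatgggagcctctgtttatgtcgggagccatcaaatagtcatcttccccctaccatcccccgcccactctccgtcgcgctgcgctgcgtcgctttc
SLC25A51 (chr9:37904128-37904277, - strand): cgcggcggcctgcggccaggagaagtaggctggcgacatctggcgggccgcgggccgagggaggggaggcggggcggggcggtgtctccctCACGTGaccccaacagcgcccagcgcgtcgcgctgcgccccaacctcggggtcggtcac
SLC25A33 (chr1:9539315-9539464, + strand): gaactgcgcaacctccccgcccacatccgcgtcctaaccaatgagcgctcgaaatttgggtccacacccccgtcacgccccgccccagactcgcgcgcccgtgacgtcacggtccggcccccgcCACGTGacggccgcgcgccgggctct
SLC25A38 (chr3:39383220-39383369, + strand): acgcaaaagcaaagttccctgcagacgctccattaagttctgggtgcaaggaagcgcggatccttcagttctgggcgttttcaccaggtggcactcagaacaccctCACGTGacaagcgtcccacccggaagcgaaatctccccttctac
SLC25A46 (chr5:110738857-110739006, + strand): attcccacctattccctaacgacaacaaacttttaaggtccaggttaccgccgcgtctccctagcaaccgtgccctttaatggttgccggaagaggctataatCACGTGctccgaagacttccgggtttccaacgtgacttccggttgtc
SLC25A10 (chr17:81712134-81712283, + strand): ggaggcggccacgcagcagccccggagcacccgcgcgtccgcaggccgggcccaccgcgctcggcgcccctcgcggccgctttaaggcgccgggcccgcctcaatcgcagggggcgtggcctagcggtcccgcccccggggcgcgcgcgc
The motif lay at positions -143 to -138 from the start in SLC25A36, -59 to -54 in SLC25A51, -26 to -21 in SLC25A33, -44 to -39 in SLC25A38 and -47 to -42 in SLC25A46. In SLC25A51, SLC25A33 and SLC25A38 the letters AC follow it directly. Its letters are not in the printed stretch of SLC25A10. They were in 0 of 21 promoter windows of carrier genes that fell, so any of these printed here would lack them. Risen genes without the motif are not printed.

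RefSeq promoter windows, from 250 bases before to 50 after the start, were matched for 37 of the 44 genes by symbol. Of the 16 genes that rose, SLC25A16, SLC25A30, SLC25A32 and SLC25A37 had no window. CACGTG was in 6 of these 37 windows, and all 6 belonged to genes that rose. It was thus in 6 of the 12 windows of genes that rose, 0 of 21 of genes that fell and 0 of 4 of genes that did not pass. The sixth window was that of SLC25A13, at positions -154 to -149, whose rise is small (log2 fold change 0.13) and lost its call in several alternatives. The 6 risen genes whose windows lack the motif are SLC25A3, SLC25A6, SLC25A25, SLC25A26, SLC25A27 and SLC25A44, with log2 fold changes from 0.18 to 0.73. CACGTG was in 7.43% of all 27305 promoter windows. Among 12177 tested genes with a window it was in 9.92%, with 12.7% of the 4811 genes called higher and 8.0% of the 4914 called lower. The median log2 fold change was 0.18 over the 1208 tested genes with the motif and -0.03 over the 10969 without it. Median GC content of the windows was 63.0% in the carrier genes that rose and 71.3% in those that fell, and the part of GC content in the split was not tested. The motif was one of 7 searched, with earlier results of these data known, and these counts are a description with no test.

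**Figure D2:**
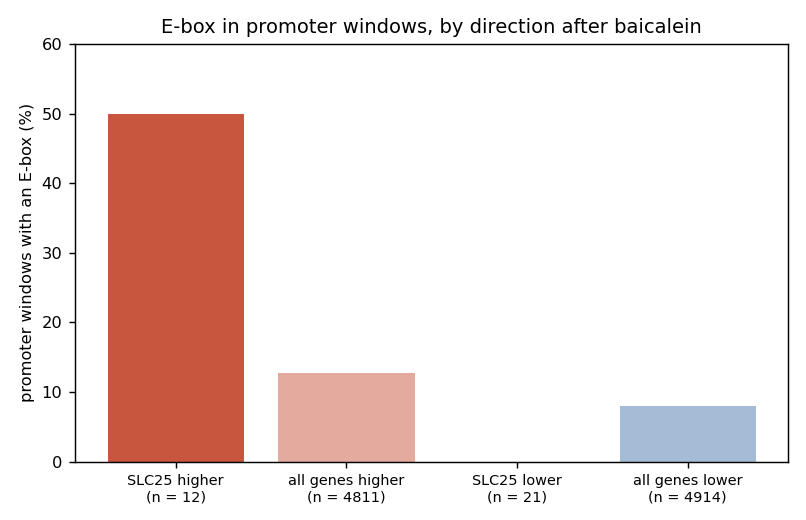
Percentage of RefSeq promoter windows that hold an E-box, for SLC25 genes and all tested genes called higher or lower after baicalein; n is the number of windows. The motif is in 6 of 12 windows of risen SLC25 genes and in 0 of 21 of those that fell, beside 12.7% and 8.0% of all genes called higher and lower.

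The other 6 motifs were searched on both strands in the same windows. The core GCGTG bound by the aryl hydrocarbon receptor was in 9 of 12 windows of risen carrier genes and 16 of 21 of those that fell, 75.7% of the 37 in all, against 36.3% of all 27305 windows and 49.9% of the windows of tested genes. The antioxidant response core TGACNNNGC was in 2 of 12 and 5 of 21 (13.6% of all windows), and the E2F motif TTTNNCGC in 1 of 12 and 2 of 21 (6.90%). The NRF1 motif was in 2 of 12 and 1 of 21 (6.28%). The composite C/EBP-ATF motif TGATGNAAN was in 0 of 12 and 1 of 21 (3.67%), and TNAAGGTCA, bound by estrogen-related receptors, in 0 of 37 (0.963%). GCGTG, on either strand, can share at most 1 letter with CACGTG. Of the 7 motifs, E-boxes were the one with no window among the carrier genes that fell and several among those that rose.

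SLC25A36 had 257 and 259.5 CPM in the baicalein libraries, against 103.9 and 89.98 CPM in the controls, a 2.67-fold rise (log2 fold change 1.41, SE 0.05, adjusted p = 3.62e-15). Its paralog SLC25A33 had 42.1 and 43.3 CPM in baicalein libraries and 20.6 and 19.0 CPM in controls (log2 fold change 1.10, SE 0.06, adjusted p = 9.67e-14). Both baicalein libraries lay above both controls for each gene, and the gap between groups was wider than the gap between the 2 controls of SLC25A36. Summed per kilobase of merged exons, the 2 pyrimidine nucleotide carriers reached 36.1 ± 0.381 CPM per kb in baicalein libraries and 14.6 ± 1.25 in controls (SD, n = 2 each). SLC25A51, the NAD+ carrier gene, had 14.3 and 14.7 CPM in baicalein libraries, against 6.50 and 5.83 CPM in controls (log2 fold change 1.23, SE 0.09, adjusted p = 2.3e-11). AL138752.2, on the same strand, overlaps 3.59% of the exon bases of SLC25A51.

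Of the 9 tested genes for nucleotide and cofactor carriers, 6 rose and 3 fell. SLC25A32, which codes for the carrier of folate, had 35.5 and 35.7 CPM in baicalein libraries and 25.5 and 24.9 CPM in controls (log2 fold change 0.50, SE 0.06). SLC25A26, the S-adenosylmethionine carrier gene, and SLC25A16, linked to coenzyme A, rose by less, with log2 fold changes of 0.23 (adjusted p = 0.0145) and 0.20 (adjusted p = 0.00281). With library totals as the only scaling neither passed (0.171 and 0.138), SLC25A26 also failed without control 1 (0.0833) and without baicalein 1 (0.0888), and SLC25A16 with GC content and exon length corrected (0.885). Exons of SLC25A26 overlap those of LRIG1 on the opposite strand, and exons of SLC25A32 those of DCAF13 and, on its own strand, those of AC012213.5 (69.7% of exon bases, not analysed here). Whether the counts were made by strand is not stated.

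Among those that fell, SLC25A42, which codes for a mitochondrial coenzyme A carrier, had 8.91 and 7.89 CPM after baicalein and 14.9 and 14.9 CPM in controls (log2 fold change -0.82, SE 0.09). SLC25A17, the peroxisomal member, fell by 0.48 on the log2 scale (SE 0.07).

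**Figure D3:**
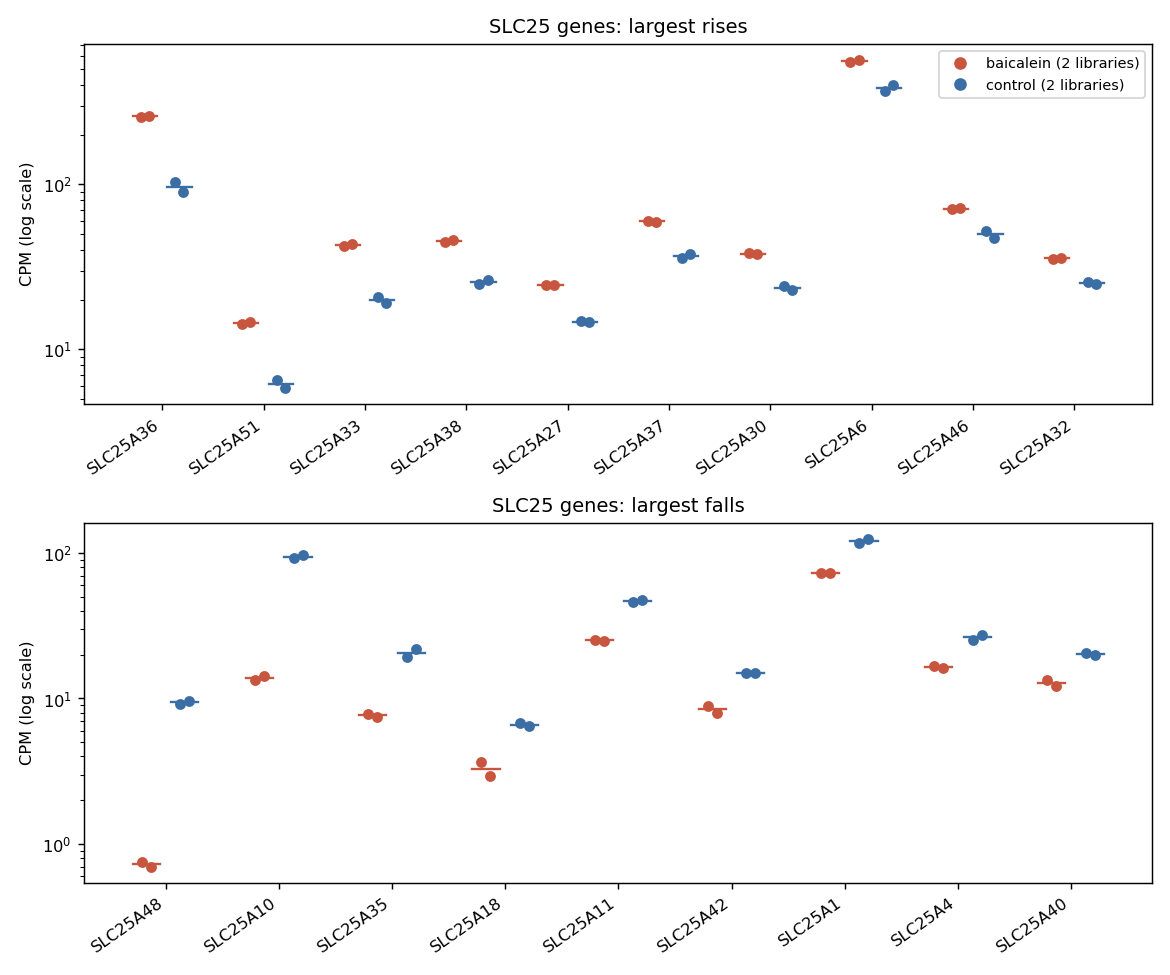
CPM on a log axis in each of the 2 baicalein (left) and 2 control (right) libraries for the 10 SLC25 genes with the largest rises and 9 of those with the largest falls among called genes with a mean log2 CPM of at least 1; short lines are group means. Only genes whose 2 groups of libraries did not overlap were drawn, as was the case in 86.9% of all genes tested. SLC25A48 and SLC25A10 show the widest gaps.

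All 4 genes for di- and tricarboxylate and oxoacid carriers fell (median log2 fold change -1.05), beside 37.6% of all genes tested and 52.3% of the family called lower. SLC25A10 (chromosome 17, positions 81712236 to 81721016) codes for the dicarboxylate carrier, which exchanges malate or succinate for phosphate. It had 13.3 and 14.3 CPM in baicalein libraries, against 92.5 and 96.5 CPM in controls, a fall of 6.88-fold (log2 fold change -2.78, SE 0.06, adjusted p = 3.76e-21). Per kilobase of merged exons it ranked 26 of the 44 genes in baicalein libraries and 6 in controls. Another gene of GENCODE, AC139530.2, shares 46.6% of the exon bases of SLC25A10 on the same strand and was not analysed here.

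SLC25A11, the oxoglutarate/malate carrier gene of the malate-aspartate shuttle, had 25.2 and 25.02 CPM in baicalein libraries and 45.8 and 47.6 CPM in controls (log2 fold change -0.89, SE 0.05). The citrate carrier gene SLC25A1 had 72.8 and 72.3 CPM after baicalein, against 116 and 125 CPM in controls (log2 fold change -0.73, SE 0.05, adjusted p = 1.32e-12). SLC25A21, which codes for the oxodicarboxylate carrier, was scarce, with 35 and 30 counts in baicalein libraries and 76 and 78 in controls (log2 fold change -1.20, SE 0.23, adjusted p = 7.58e-05). For each of these 4 carboxylate carriers, both baicalein libraries lay below both controls, as in 43.5% of all genes tested. Exons of SLC25A21 overlap those of SLC25A21-AS1 and PAX9 on the opposite strand, with 1710 and 3418 counts against 219, and exons of SLC25A11 those of RNF167. The part of such overlaps in the counts was not tested.

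Among the energy carriers, the 3 ADP/ATP carrier genes did not move together. These proteins exchange matrix ATP for cytosolic ADP. SLC25A6 (chromosome X, positions 1386152 to 1392724) had 552 and 566 CPM in baicalein libraries and 369.8 and 400.3 CPM in controls, a rise of 0.54 on the log2 scale (SE 0.04, adjusted p = 2.19e-10). SLC25A5 (chromosome X, positions 119468400 to 119471319) had 145 and 143 CPM in baicalein libraries, against 223 and 229 CPM in controls (log2 fold change -0.65, SE 0.04, adjusted p = 4.91e-12). SLC25A4, the form known from heart and skeletal muscle, had 16.8 and 16.2 CPM after baicalein and 25.1 and 27.4 CPM in controls (log2 fold change -0.67, SE 0.07).

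Per kilobase, SLC25A6 made up 71.9% and 72.6% of the summed ADP/ATP carrier level in baicalein libraries, against 52.6% and 53.9% in controls, and SLC25A5 27.1% and 26.5% against 45.8% and 44.5%. The sum itself was 358 ± 3.55 CPM per kb in baicalein libraries and 334 ± 13.2 in controls (SD, n = 2 each). Shares of 2 against 2 libraries cannot reach an exact two-sided permutation p below 0.33, so shares are given as descriptions. Both genes have processed pseudogenes and resemble each other in sequence, which makes the split of reads between them less certain.

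The phosphate carrier gene SLC25A3 (chromosome 12, positions 98593591 to 98606379), whose protein brings phosphate to ATP synthase and also carries copper, had 435 and 447 CPM in baicalein libraries and 349 and 329.6 CPM in controls (log2 fold change 0.38, SE 0.04). On the scale of CPM per kb of merged exons, the 5 most abundant carriers in baicalein libraries were SLC25A6 (258), SLC25A5 (95.9), SLC25A39 (60.4), SLC25A3 (49.6) and SLC25A1 (34.6). Control levels of the same 5 genes on that scale were 178, 151, 69.8, 38.2 and 57.4, so that SLC25A1 stood above SLC25A3 there. This order rests on the annotated length. With the length of the principal transcript, SLC25A3 came first in both groups, at 290.7 CPM per kb in baicalein libraries and 224 in controls.

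The ATP-Mg/phosphate carriers, which set the matrix pool of adenine nucleotides, split in 3 ways. SLC25A25 had 42.6 and 43.0 CPM in baicalein libraries and 31.8 and 31.3 CPM in controls (log2 fold change 0.44, SE 0.05). SLC25A24 had 50.6 and 51.5 CPM after baicalein, against 77.6 and 67.9 CPM in controls (log2 fold change -0.51, SE 0.06). SLC25A23 had 55.7 and 56.4 CPM in baicalein libraries and 57.1 and 59.9 CPM in controls, which did not pass (log2 fold change -0.06, adjusted p = 0.25). SLC25A23 was called higher with GC content and exon length corrected (0.13, adjusted p = 0.00197), and lower with library totals as the only scaling (-0.17, adjusted p = 0.00442) and without control 1 (-0.10, adjusted p = 0.0263). SLC25A41 had only 35 and 16 counts in baicalein libraries and 17 and 15 in controls, and passed only with GC content and exon length corrected (0.85, adjusted p = 0.0355). As a share of the summed level per kb, SLC25A24 averaged 27.0% ± 0.179 in baicalein libraries and 36.7% ± 2.57 in controls (SD, n = 2 each). SLC25A25 averaged 30.9% ± 0.0362 and 21.7% ± 0.291.

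**Figure D4:**
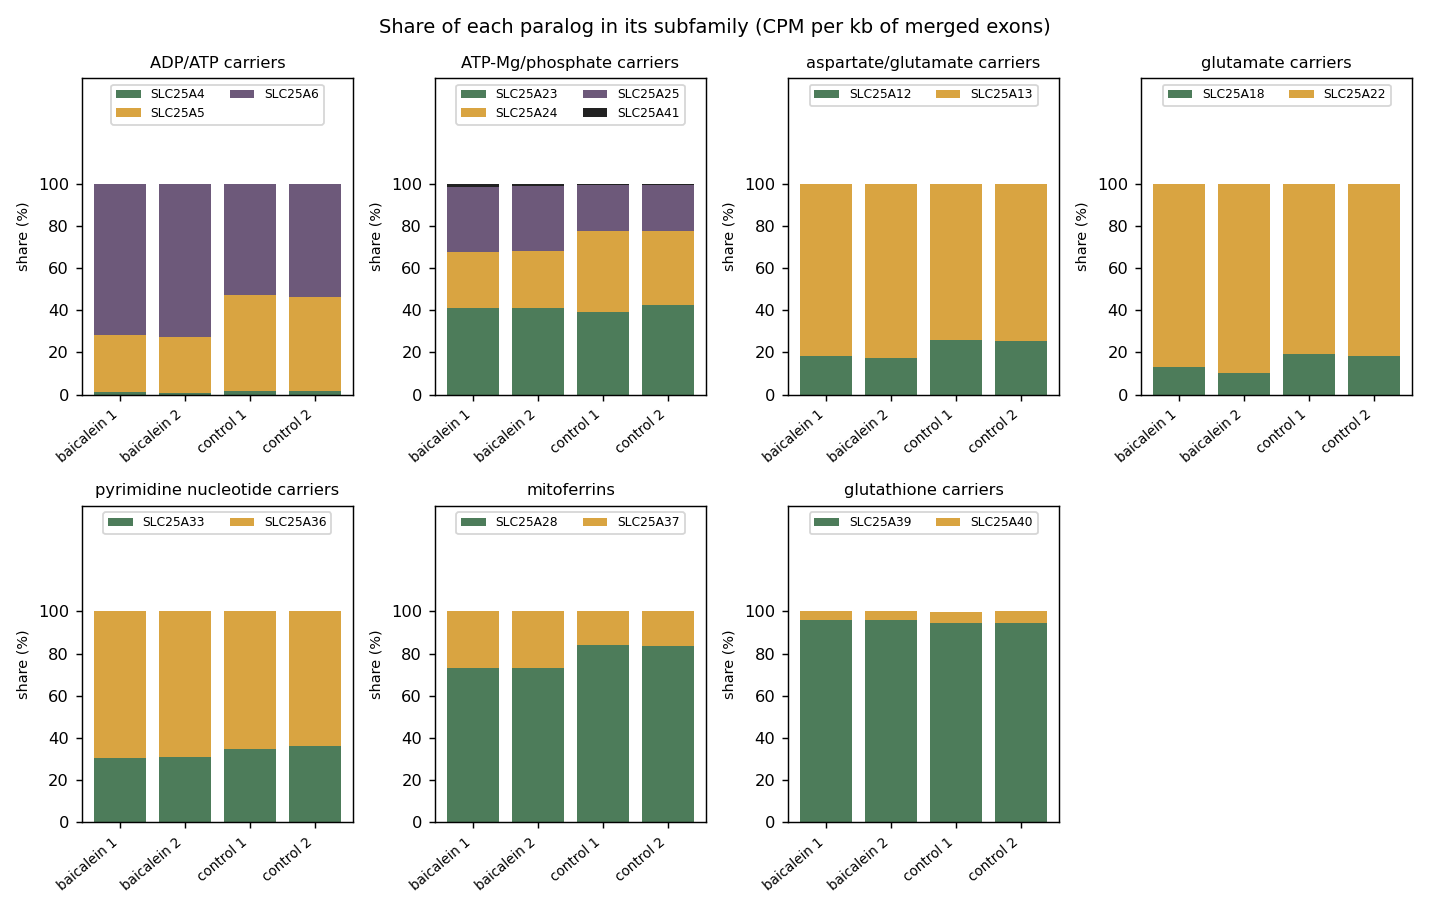
Stacked bars give each paralog's share of the summed level (CPM per kb of merged exons) of its subfamily in each library, baicalein libraries to the left of controls. SLC25A6 takes 71.9% and 72.6% of the ADP/ATP carrier level in baicalein libraries against 52.6% and 53.9% in controls, and SLC25A37 takes 26.7% and 27.0% of the mitoferrin level against 16.1% and 16.3%.

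Genes for aspartate/glutamate and glutamate carriers were 1 higher and 3 lower of 4. The aspartate/glutamate carriers of the malate-aspartate shuttle are SLC25A12 (aralar) and SLC25A13 (citrin). SLC25A12 had 11.4 and 10.8 CPM in baicalein libraries, against 16.6 and 15.9 CPM in controls (log2 fold change -0.55, SE 0.08, adjusted p = 1.6e-06). SLC25A13 had 36.5 and 37.4 CPM after baicalein and 34.0 and 33.3 CPM in controls (log2 fold change 0.13, SE 0.05, adjusted p = 0.03). That call was lost in DESeq2 (adjusted p = 0.138), with library totals as the only scaling (0.634), without baicalein 1 (0.101) and without baicalein 2 (0.185). The share of SLC25A12 in the pair was 18.3% and 17.2% in baicalein libraries and 25.9% and 25.6% in controls.

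The glutamate carrier genes SLC25A18 and SLC25A22 were both lower. SLC25A18 had 3.64 and 2.93 CPM in baicalein libraries and 6.73 and 6.44 CPM in controls (log2 fold change -0.98, SE 0.12, adjusted p = 1.27e-07). SLC25A22 had 24.2 and 24.9 CPM after baicalein, against 27.6 and 28.1 CPM in controls (log2 fold change -0.18, SE 0.06, adjusted p = 0.00769). With GC content and exon length corrected SLC25A22 was called in the opposite direction (0.16, adjusted p = 0.00738). It did not pass in DESeq2 (adjusted p = 0.0645), without baicalein 1 (0.131) or without baicalein 2 (0.0527). The ornithine carrier gene SLC25A15, of the urea cycle and of ornithine supply, had 13.6 and 15.2 CPM in baicalein libraries and 20.8 and 21.0 CPM in controls (log2 fold change -0.54, SE 0.07). SLC25A29, which codes for a carrier of basic amino acids, fell by 0.28 (log2, SE 0.05).

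Both genes for glycine and branched-chain amino acid carriers rose. SLC25A38, the glycine carrier gene, had 44.6 and 45.9 CPM in baicalein libraries, against 24.96 and 26.2 CPM in controls, a 1.77-fold rise (log2 fold change 0.82, SE 0.06, adjusted p = 5.27e-12). SLC25A44, which carries branched-chain amino acids, had 64.9 and 64.8 CPM after baicalein and 57.2 and 57.3 CPM in controls (log2 fold change 0.18, SE 0.05), a call that library totals as the only scaling did not give. The carnitine/acylcarnitine carrier gene SLC25A20, needed for the entry of long-chain fatty acids into the matrix, had 19.4 and 18.9 CPM in baicalein libraries and 27.2 and 27.2 CPM in controls (log2 fold change -0.50, SE 0.06, adjusted p = 1.71e-07).

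The mitoferrins import iron for heme and iron-sulfur clusters, and their 2 genes moved apart. SLC25A37, known for its role in red cell precursors, had 60.4 and 59.2 CPM in baicalein libraries, against 36.0 and 38.1 CPM in controls (log2 fold change 0.69, SE 0.05, adjusted p = 3.79e-11). SLC25A28, the widely expressed form, had 35.7 and 34.5 CPM after baicalein and 40.3 and 42.1 CPM in controls (log2 fold change -0.23, SE 0.05, adjusted p = 0.000548). The share of SLC25A37 in the summed level per kb was 26.7% and 27.0% in baicalein libraries, against 16.1% and 16.3% in controls. The sum was 27.35 ± 0.582 CPM per kb in baicalein libraries and 28.0 ± 0.901 in controls (SD, n = 2 each), a gap within that spread.

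Glutathione carriers bring the antioxidant tripeptide into the matrix. SLC25A39 had 216 and 209.6 CPM in baicalein libraries, against 244 and 248 CPM in controls (log2 fold change -0.21, SE 0.04, adjusted p = 0.000157), and with GC content and exon length corrected the value was 0.01 (0.0139) and did not pass (adjusted p = 0.709). SLC25A40 had 13.4 and 12.2 CPM after baicalein and 20.5 and 20.03 CPM in controls (log2 fold change -0.66, SE 0.08, adjusted p = 5.25e-08).

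Of the carriers that resemble uncoupling proteins, 2 rose. SLC25A27 had 24.5 and 24.5 CPM in baicalein libraries and 14.9 and 14.6 CPM in controls (log2 fold change 0.73, SE 0.07), and SLC25A30 had 38.4 and 37.7 CPM against 24.2 and 23.0 CPM (log2 fold change 0.69, SE 0.06). SLC25A14 had 5.997 and 5.64 CPM after baicalein and 6.14 and 5.83 CPM in controls, and was the 1 carrier gene whose groups overlapped. SLC25A46, the outer membrane member, had 70.8 and 72.0 CPM in baicalein libraries, against 52.4 and 47.4 CPM in controls (log2 fold change 0.52, SE 0.05).

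The deepest fall of the family was in SLC25A48 (chromosome 5, positions 135579202 to 135889770), which has been linked to choline entry into mitochondria and was grouped with the carriers given no role here. It had 41 and 26 counts, or 0.750 and 0.698 CPM, in baicalein libraries, against 435 and 450 counts, or 9.21 and 9.57 CPM, in controls. That is a 12.8-fold fall (log2 fold change -3.68, SE 0.14, adjusted p = 2.21e-16), with both baicalein libraries far below both controls. SLC25A35, whose substrate is not named here, had 7.84 and 7.49 CPM in baicalein libraries and 19.3 and 22.0 CPM in controls (log2 fold change -1.42, SE 0.09, adjusted p = 8.38e-13). Exons of RANGRF, on the opposite strand, overlap 33.2% of the exon bases of SLC25A35 and had 245 counts in all, against 2653 for SLC25A35. SLC25A45 fell with a log2 fold change of -0.51 (SE 0.09). SLC25A34 had 72 and 58 counts after baicalein and 78 and 113 in controls; with a log2 fold change of -0.51 (adjusted p = 0.0299) it passed, but not when control 2 was left out (-0.21, 0.46) or baicalein 1 (-0.37, 0.171). SLC25A43 and SLC25A53 did not pass, though SLC25A43 was called higher without control 1 (0.22, adjusted p = 0.025).

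Carrier genes that rose and fell also differed in features of their transcripts. Median GC content of the longest annotated transcript was 45.3% in the 16 genes that rose and 57.7% in the 23 that fell, and median merged exon length was 5393 and 3897 bases. Over the 44 genes, Spearman's rho of the log2 fold change was -0.29 with GC content and 0.15 with exon length. Over 17867 tested genes rho was -0.17 and 0.06. These are correlations across genes in the same 4 libraries, and genes are not independent replicates. With a trend in GC content and length removed from each library, 17 carrier genes were called higher and 20 lower, and their median log2 fold change was -0.10 (-0.0063 for all genes tested).

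Genes that work beside the carriers came from 9 lists with 49 tested members, of which 15 were higher, 23 lower and 11 did not pass (median log2 fold change -0.10). Over all genes tested 37.4% were called higher and 37.6% lower, 75.0% in either direction, and each list's counts are to be read beside those shares. The mitochondrial folate list, whose enzymes use the folate that SLC25A32 brings in, had 4 of 5 members higher and 0 lower. ALDH1L2 had 173 and 172 CPM in baicalein libraries, against 39.3 and 39.8 CPM in controls, and MTHFD1L 64.9 and 67.6 CPM against 14.2 and 15.04 CPM. MTHFD2 had 446 and 454 CPM after baicalein and 198 and 185.5 CPM in controls. Among iron-sulfur and heme genes 3 of 9 were higher and 4 lower. The 3 that rose were ISCU, a scaffold for iron-sulfur clusters (log2 fold change 1.27), FECH, the enzyme that inserts iron into heme (1.14), and ALAS1, which condenses the glycine carried by SLC25A38 (0.85).

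Malate-aspartate shuttle enzymes were 1 higher and 3 lower of 4. The cytosolic aminotransferase gene GOT1 had 271 and 277 CPM in baicalein libraries, against 86.8 and 92.5 CPM in controls (log2 fold change 1.61), while MDH1 and GOT2 fell by 0.71 and 0.58 on the log2 scale. Carnitine shuttle enzymes, which work with SLC25A20, were 4 lower and 0 higher of 5, with CRAT at 75.2 and 73.4 CPM after baicalein and 155 and 162 CPM in controls. CPT2 and CPT1C had log2 fold changes of -0.63 and -2.32, the second at under 3 CPM in every library. CPT1A, the most abundant of the list, did not pass (log2 fold change 0.09, edgeR adjusted p = 0.059). It had 276.7 and 280.2 CPM in baicalein libraries, above the 253.1 and 268.6 CPM of controls. Enzymes of proline, ornithine and glutamate were 4 higher and 1 lower of 7, among them GPT2 (0.92) and PYCR1 (0.68).

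Other metabolite carriers of the inner membrane, which belong to other protein families, were 1 higher and 5 lower of 7. SFXN2, a sideroflexin, had 18.8 and 19.4 CPM in baicalein libraries, against 138 and 148 CPM in controls (log2 fold change -2.91, SE 0.05, adjusted p = 6.15e-22). The serine carrier gene SFXN1 and SFXN5 fell by 0.72 and 1.38. Family members with other symbols were 0 higher and 2 lower of 4, with UCP2 at -0.59 and MTCH1 at -0.47, and UCP3 did not pass. The outer membrane channel gene VDAC2 rose (0.38) and VDAC1 and VDAC3 fell (-0.10 and -0.76). Of 5 genes for the translocase that inserts carriers into the membrane, TIMM9 rose (0.96) and TIMM22 and TIMM29 fell (-0.19 and -0.41).

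**Figure D5:**
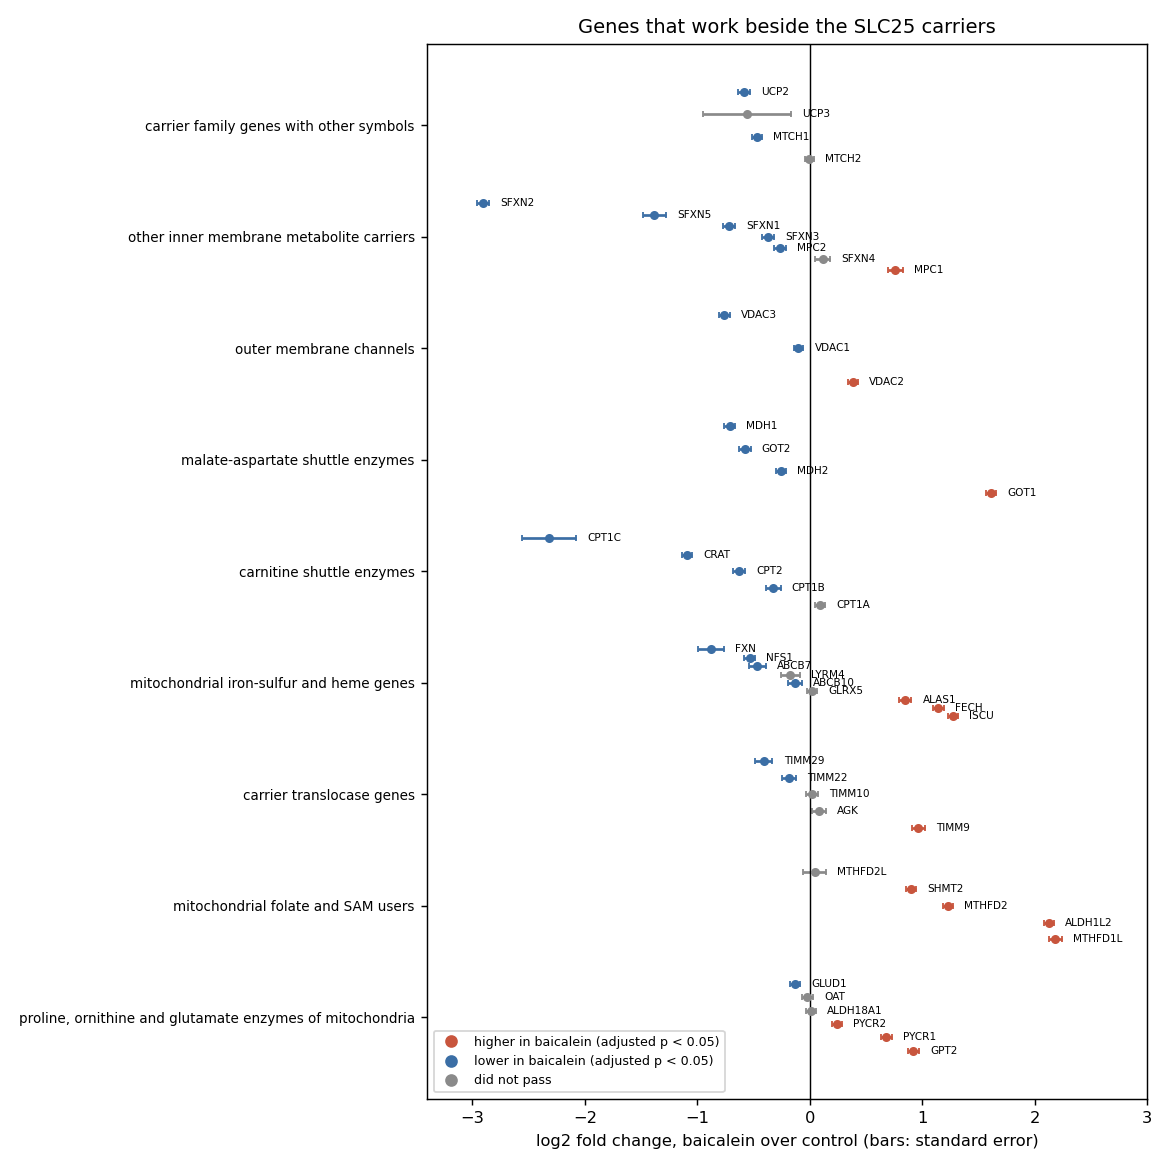
Log2 fold change (baicalein over control, 2 libraries each) of 48 genes on 9 lists of genes that work beside the SLC25 carriers; points are edgeR estimates with standard errors, coloured by call. The folate list holds 4 genes higher and 0 lower, the carnitine shuttle 0 higher and 4 lower, and SFXN2 lies lowest at -2.91.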

How the data were processed

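Poly(A) RNA-seq libraries of T47D cells (2 baicalein, 2 control) were analysed from 1 table of whole-number counts per gene that the authors deposited without scaling. The submitters' processing notes list build GRCh38 and, with no role for each, STAR 2.7.8a, RSEM 1.3.3, DESeq2 1.34, FastQC 0.11.8 and cutadapt 2.3; no annotation release or strand setting is stated. The smallest row total was 10, so genes below it were not analysed here. Columns were matched to samples by description, and 0 columns belonged to other samples. Coordinates, gene types, exon overlaps and merged exon lengths came from GENCODE release 29 (19849 of 20515 identifiers), and promoter windows from RefSeq on GRCh38.p14.

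All genes were fitted together in R 4.3.3 with edgeR 4.0.16 (robust quasi-likelihood, TMM factors 0.964, 0.965, 1.042 and 1.031 for baicalein 1, baicalein 2, control 1 and control 2), after filterByExpr (minimum count 10, minimum total 15) kept 18369 genes. The standard error is the log2 fold change over the square root of F. A floor of 3 counts is 0.0549 to 0.0805 CPM; it covers counting error only. Over all genes, replicates differed on average by more than sampling noise (mean chi-square per gene 2.43 in baicalein and 9.61 in control, median 0.703 and 1.385). Over the carrier genes the mean was 1.20 in baicalein and 6.45 in control (median 0.509 and 1.35). Their excess over sampling noise was thus mainly between the controls. On simulated counts for this comparison (18000 genes), 66%, 92%, 96% and 100% of 50 genes each changed by 1.2, 1.5, 2 and 4 fold were called, as were 30 of 17800 unchanged genes. The changed genes were split evenly between rises and falls and drawn from those with at least 50 expected counts. Far fewer genes changed than in the data, where 75.0% were called. These rates therefore do not cover scarce genes or shifts of that many genes.

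Named in every library were members with adjusted p under 0.05, mean log2 CPM of at least 1 and separate groups (the 10 largest rises and falls), the 5 most abundant and those with paralogs; up to 3 genes per partner list were named by smallest adjusted p. Some genes that this rule reaches are not reported here by name, though the counts include them. Members and lists were chosen with earlier results of these data known. SLC25A14, SLC25A15, SLC25A20, SLC25A21, SLC25A34, SLC25A44 and the partner gene CPT1A were given by library outside this rule, after their values were seen. Alternatives were limma-voom, DESeq2 1.42.0, other scalings and filters, a 1.5-fold test, a threshold of 0.01, each library left out, and a replicate block; the GC and length correction and the principal transcript length were added after seeing the data.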

Additional observations from a re-analysis of the deposited data

How the results depend on the processing

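Counts of carrier genes called stayed within 1.5 times the reported ones in all alternatives except the test against a 1.5-fold change, which called 7 higher and 9 lower (and 8 lower among the partner genes). Leaving out 1 library each gave 14 to 16 higher and 21 to 24 lower. DESeq2 called 14 and 21, and limma-voom 16 and 23. With library totals as the only scaling the median of the carrier genes was -0.30, while that of all genes tested moved to -0.10, and the calls of SLC25A13, SLC25A16, SLC25A26 and SLC25A44 were lost. With GC content and exon length corrected, SLC25A22 (0.16), SLC25A23 (0.13) and SLC25A39 (0.0139) changed sign, the first 2 with calls as higher, and the median of the carrier genes was -0.10; the cause was not tested. SLC25A14, which did not pass, ran from -0.0799 to 0.0127 with 1 library left out (0.0001 without control 1, 0.0127 without baicalein 2). With the length of the principal transcript, the share differences (baicalein minus control, percentage points) were -9.67 for SLC25A12 (reported -8), 3.2 for SLC25A36 (4.75), 12.61 for SLC25A37 (10.63) and -0.81 for SLC25A40 (-1.39).

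Same-numbered libraries did not deviate together (r = 0.0136 over genes). This value cannot decide whether the numbers pair them, since a weak shared deviation would also give a small r, and the labels state no pairing. With the replicate number as a block, 16 carrier genes were higher and 23 lower. With 1 library left out, the lone one of its group is assumed to vary like the other group. Depth limits SLC25A41, SLC25A53, SLC25A21 and SLC25A34 most.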

Other observations

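Non-coding rows named after carrier genes add values beside their hosts. SLC25A21-AS1 had 12.8 and 13.7 CPM in baicalein libraries, against 5.06 and 5.49 CPM in controls (log2 fold change 1.33, SE 0.09, edgeR adjusted p = 1.17e-11), while SLC25A21 on the opposite strand had a log2 fold change of -1.20. SLC25A25-AS1 had 17.8 and 18.5 CPM after baicalein and 13.3 and 12.9 CPM in controls (log2 fold change 0.47, SE 0.07), close in size to SLC25A25 at 0.44. The pseudogene SLC25A24P1 had 26 and 24 counts in baicalein libraries and 45 and 46 in controls (log2 fold change -0.81, SE 0.28, adjusted p = 0.0121), beside -0.51 for SLC25A24. SLC25A5-AS1 (-0.34, adjusted p = 0.0842), SLC25A5P1 (0.15) and SLC25A28-DT (0.21) did not pass. Without strand in the counting, reads of a gene and its antisense partner cannot be told apart.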
